A study of Homo sapiens with 6 samples.

Results

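The genes described here are 44 genes of the unfolded protein response and of the ATF4 stress response, measured in SCC-9 cells after an siRNA against Ki67. They were picked by gene symbol, with earlier results of these data known, from the table of 25349 genes, and all 44 have a row in it. All 44 also passed the filter on low counts, which left 14661 genes in the test. By known role, 25 of them belong to the ATF4 arm (ATF4 and its partners, stress effectors, amino acid enzymes and transporters) and 19 to the ER arm (chaperones, ER-associated degradation, and the stress sensors with XBP1).

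SCC-9 is an established human line of tongue squamous cell carcinoma. The siE7 group received an siRNA that targets exon 7 of MKI67, which encodes Ki67, and the siNC group a nonspecific siRNA, with 3 libraries in each. Both groups were grown in the same medium with serum and hydrocortisone, received 10 nM of siRNA by lipofection on day 0 and day 2, and gave RNA on day 4. The methods list 3 siRNAs against exon 7 without naming the one sequenced, and the labels do not say whether the libraries came from separate cultures, so p-values cover only the spread among these libraries.

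ATF4 is a transcription factor of the integrated stress response. Kinases that sense unfolded protein in the endoplasmic reticulum (ER), lack of amino acids, lack of heme or double-stranded RNA phosphorylate eIF2, which slows translation in general but favours that of ATF4. ATF4 then raises genes for amino acid synthesis and uptake. The ER has further branches of its own, in which IRE1 (ERN1) splices the XBP1 mRNA and ATF6 is cut in the Golgi, and both factors raise chaperones and degradation genes. The counts read RNA per gene, so they show neither eIF2 phosphorylation, nor ATF4 protein, nor XBP1 splicing.

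The promoter sequences come first. The members were picked by name from known roles, which may themselves rest on such motifs. The shares below therefore only describe the lists. For 41 of the 44 members 1 RefSeq window of 300 bases was searched on both strands for 3 motifs. It ran from 250 before to 50 after the annotated RefSeq start (GRCh38.p14). Other starts of a gene were not searched, so a gene without a match may hold one elsewhere. In TRIB3, PHGDH, SLC3A2, MTHFD2 and EIF2AK3 the window lay well inside the gene as GENCODE bounds it. That of TRIB3 was chr20:381045-381344, in a gene from 362835 to 397559. The C/EBP-ATF response element (CARE, TGATGNAA), known as the element ATF4 binds with a C/EBP partner, was found in 4 of 22 windows of the ATF4 arm (CHAC1, ASNS, SLC3A2 and SLC7A1), in 1 of 19 of the ER arm (HERPUD1) and in 3.67% of all 27305 windows. The ER stress response element (ERSE, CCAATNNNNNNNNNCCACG), known as the element of ATF6 with NF-Y, was found in 0 of 22 windows of the ATF4 arm, in 5 of 19 of the ER arm (HSPA5, HSP90B1, CALR, CRELD2 and XBP1) and in 0.0806% of all windows. The core TGACGTGG of the unfolded protein response element was found in HYOU1 alone among the members and in 0.795% of all windows. This core shares the letters CGTGG with the other strand of ERSE, and no window of a member held matches to more than 1 of the 3 motifs searched. Other orders or spacings of the parts of ERSE were not searched, and the HERPUD1 window holds attgggccacg. A match describes letters in a window and does not show a bound site.

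The 250 bases before the RefSeq start are shown for 5 members, 5′ to 3′ on the strand of the gene, with the motif in capitals. CHAC1 and ASNS are ATF4-arm genes with a CARE whose levels were higher with siE7. HERPUD1 is the ER-arm gene with a CARE. HSPA5 and XBP1 have an ERSE at a like distance from the start. The stretches lie at chr15:40953221-40953470 (CHAC1, plus strand), chr7:97872409-97872658 (ASNS, minus strand), chr16:56931892-56932141 (HERPUD1, plus strand), chr9:125241344-125241593 (HSPA5, minus strand) and chr22:28800570-28800819 (XBP1, minus strand).
CHAC1: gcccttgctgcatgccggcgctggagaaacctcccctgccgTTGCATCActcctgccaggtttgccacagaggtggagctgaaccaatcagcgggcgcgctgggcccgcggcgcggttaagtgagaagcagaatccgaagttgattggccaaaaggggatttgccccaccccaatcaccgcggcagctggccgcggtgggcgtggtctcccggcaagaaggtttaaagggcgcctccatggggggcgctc
ASNS: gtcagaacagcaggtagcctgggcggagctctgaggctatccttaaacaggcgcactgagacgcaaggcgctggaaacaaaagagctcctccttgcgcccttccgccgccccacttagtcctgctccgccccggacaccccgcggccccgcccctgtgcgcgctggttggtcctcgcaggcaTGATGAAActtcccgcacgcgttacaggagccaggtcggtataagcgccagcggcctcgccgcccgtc
HERPUD1: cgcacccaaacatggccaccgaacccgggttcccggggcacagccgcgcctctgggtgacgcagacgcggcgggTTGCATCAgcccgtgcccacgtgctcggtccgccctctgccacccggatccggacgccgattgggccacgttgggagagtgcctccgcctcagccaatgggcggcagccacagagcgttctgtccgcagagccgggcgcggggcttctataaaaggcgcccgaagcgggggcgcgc
HSPA5: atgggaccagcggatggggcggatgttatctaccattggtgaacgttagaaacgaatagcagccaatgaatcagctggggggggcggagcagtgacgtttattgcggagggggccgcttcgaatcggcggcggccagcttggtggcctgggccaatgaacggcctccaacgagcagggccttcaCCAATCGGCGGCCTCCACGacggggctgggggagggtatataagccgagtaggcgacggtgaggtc
XBP1: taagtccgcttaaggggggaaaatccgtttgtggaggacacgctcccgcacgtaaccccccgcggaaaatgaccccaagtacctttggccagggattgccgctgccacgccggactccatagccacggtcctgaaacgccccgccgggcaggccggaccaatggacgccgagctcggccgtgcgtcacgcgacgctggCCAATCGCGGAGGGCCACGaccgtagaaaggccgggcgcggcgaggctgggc

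The first base of the CARE lay at -209 in CHAC1, at -68 in ASNS and at -176 in HERPUD1. CHAC1 and HERPUD1 carried it on the other strand, and there with the same 8 letters. The ERSE began at -66 in HSPA5 and at -52 in XBP1. Of these 5 genes, 4 had an adjusted p-value under 0.05 and HSPA5 did not, as the values below give, beside 34.0% of all tested genes. CHAC1 and ASNS were shown as genes with higher levels, so this count does not describe the members with a motif. Of those not shown, CALR was called lower. SLC3A2, SLC7A1, HSP90B1, HYOU1 and CRELD2 did not pass the test with all libraries.

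The libraries held 25608192 to 29550264 counts on genes. MKI67, the targeted gene, lay at 1029 to 1077 CPM (counts scaled to the library size with TMM factors) with siNC and at 108 to 124 CPM with siE7, a log2 fold change of -3.21 (standard error, SE, 0.114). All 8 squamous epithelial markers were detected, at a summed 23145 to 24663 CPM with siNC and 21280 to 27739 CPM with siE7. KRT14 held the largest part of this sum, and of the 8 markers KRT5 (-0.60), TP63 (-0.33), SFN (-0.61) and EPCAM (-0.77) were called lower and KRT17 (0.70) higher on the log2 scale, in the fit used for the members. The part of this in the members' values was not tested. Of other cell types, fibroblast markers summed to 16.5 to 24.2 CPM, endothelial markers to 0.0725 to 0.492 CPM and leukocyte markers to at most 0.122 CPM. The siE7 replicate 1 stood apart from its group. Over genes above 1 CPM the median absolute log2 difference was 0.372 and 0.384 to siE7 replicates 2 and 3, against 0.113 between those and 0.117 to 0.119 among the siNC libraries. For members whose call changed when siE7 replicate 1 was left out, both values are given.

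Of the 44 members, 22 reached an adjusted p-value below 0.05 (quasi-likelihood F-test of edgeR, Benjamini-Hochberg over all tested genes), 19 of them higher and 3 lower with siE7. Over all tested genes the share was 34.0%, with 18.0% higher and 16.0% lower. When libraries were scaled by their totals instead of TMM factors, 71.2% of all called genes were higher against 52.9% with TMM, and the median of all genes moved up by 0.17 on the log2 scale. Among the members 9 were DEGs, with a log2 fold change also above 1, and all 9 were higher ATF4-arm genes. DEGs made up 12.2% of all tested genes, 7.38% higher and 4.84% lower. The RNA came from whole cultures, so more RNA per cell and more cells with the RNA cannot be told apart. With 3 libraries against 3 the exact two-sided permutation test of a single gene cannot go under 0.1, the value that each gene with separate groups reaches.

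In the ATF4 arm 15 of 25 genes rose and none fell, with a median log2 fold change of 0.87. In the ER arm 4 of 19 rose and 3 fell, with a median of -0.018. The median of all tested genes was 0.08. The libraries of the groups did not overlap for 17 ATF4-arm genes, all higher with siE7, and for 8 ER-arm genes, of which 5 were higher and 3 lower. Over all tested genes 47.6% did not overlap, 24.9% higher and 22.7% lower. Set against the mean of the siNC libraries, the median log2 level of the ATF4 arm was 0.98, 0.81 and 0.70 in siE7 replicates 1, 2 and 3. That of the ER arm was -0.0097, -0.041 and -0.024 in the same libraries. The sign of the ER median changed with the scaling: it was 0.14 with library totals, while that of the ATF4 arm was then 1.04. Without siE7 replicate 1 the medians were 0.63 and -0.10. No test of the difference between the arms was made, since the members were picked as 2 lists with earlier results of these data known.

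**Figure D1:**
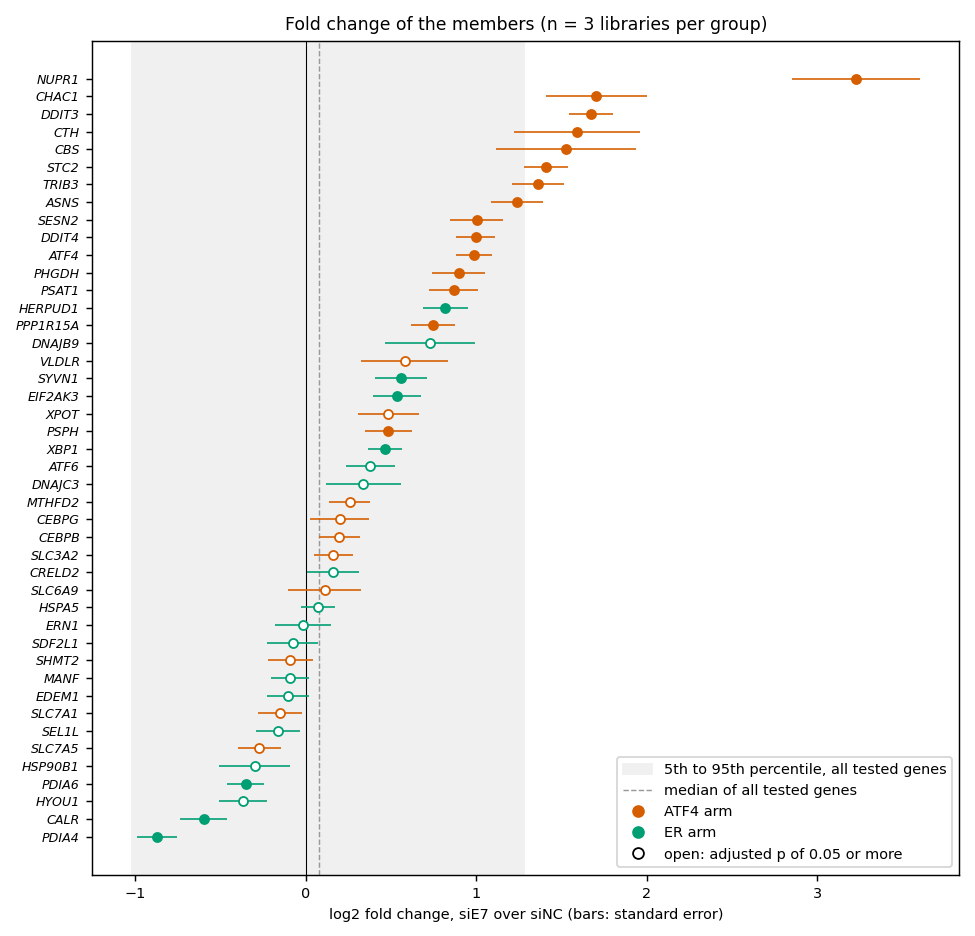
Log2 fold change of siE7 over siNC (x axis) of the 44 members, ordered by size, with bars of 1 standard error (3 libraries per group). Filled points have an adjusted p-value under 0.05, grey marks the 5th to 95th percentile of all tested genes (-1.02 to 1.28), and the dashed line is their median. ATF4-arm genes (orange) fill the upper end from NUPR1 at 3.23, and PDIA4 of the ER arm lies lowest at -0.87.

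ATF4 mRNA itself was higher with siE7. The gene (ENSG00000128272.17) lies on the plus strand at chr22:39519695-39522683 of GRCh38. Its level was 182, 170 and 190 CPM in the siNC libraries and 374, 333 and 366 CPM in the siE7 libraries. Each siE7 library lay above each siNC library. The log2 fold change was 0.99 (SE 0.108, adjusted p = 6.3e-05), 1.98-fold, just short of the limit for a DEG. It was 0.89 without siE7 replicate 1.

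Among the factors that act with ATF4 or in feedback on it, DDIT3, TRIB3 and NUPR1 rose, and the C/EBP partners CEBPB and CEBPG did not pass the test with all libraries. DDIT3 encodes CHOP, a C/EBP family factor of prolonged stress. Its level was 16.9, 15.2 and 18.8 CPM with siNC and 55.5, 55.4 and 51.5 CPM with siE7, with tight and separate groups. This was a log2 fold change of 1.68 (SE 0.129, adjusted p = 6.3e-06), the smallest p of the ATF4 regulators. DDIT3 overlaps MARS1 and MBD6 on the other strand and an unnamed gene on its own, and whether strand was used in counting is not given in the sources used here.

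TRIB3, a pseudokinase that binds ATF4 and CHOP, lay at 15.4, 16.6 and 18.4 CPM with siNC and at 51.7, 38.3 and 39.2 CPM with siE7. The groups were apart, and siE7 replicate 1 was the highest. The log2 fold change was 1.36 (adjusted p = 7.8e-05). NUPR1, a small stress-induced chromatin protein, was scarce with siNC. Its level was 0.648, 0.440 and 0.227 CPM with siNC, from 16, 11 and 6 counts, and 5.57, 3.19 and 3.60 CPM with siE7, from 165, 88 and 110 counts. This was the largest fold change of the members, 9.39-fold or 3.23 on the log2 scale (SE 0.375, adjusted p = 1.0e-04), at the 99.8th percentile of all tested genes. NUPR1 overlaps an unnamed gene on its own strand, and how shared reads were counted is not given. CEBPB ranged over 163 to 182 CPM with siNC and 181 to 229 CPM with siE7, so that the groups overlapped (adjusted p = 0.23). CEBPG had 33.5 to 41.2 CPM with siNC, and siE7 replicate 1 at 31.4 CPM lay below that range while replicates 2 and 3 at 46.0 and 51.0 CPM lay above it. Its log2 fold change was 0.20 (adjusted p = 0.40) with all libraries, and it was called higher at 0.32 (adjusted p = 9.6e-04) without siE7 replicate 1.

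All 6 stress effectors had siE7 libraries above every siNC library, and 5 of them rose. Over all tested genes these shares were 24.9% and 18.0%. STC2, a secreted glycoprotein induced by ATF4, gave the smallest p of the stress effectors. Its level was 53.5, 44.1 and 55.4 CPM with siNC and 150, 129 and 128 CPM with siE7, a log2 fold change of 1.41 (SE 0.128, adjusted p = 1.8e-05). CHAC1, which degrades glutathione, lay at 3.44, 2.36 and 5.83 CPM with siNC and at 16.3, 11.6 and 10.1 CPM with siE7. Its siNC libraries spread widely for their level, and still all lay below siE7, with a log2 fold change of 1.71 (SE 0.298, adjusted p = 0.0013).

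SESN2 and DDIT4, both inhibitors of mTORC1, rose by nearly the same amount. SESN2 lay at 21.6, 20.3 and 23.6 CPM with siNC and at 53.7, 39.5 and 38.0 CPM with siE7. Its fold was 2.00, just inside the limit for a DEG, with siE7 replicate 1 the highest library. Its log2 fold change was 1.00 with all libraries and 0.77 without siE7 replicate 1. DDIT4, at 406 to 482 CPM with siNC and 822 to 956 CPM with siE7, was also at 2.00-fold, just outside it (adjusted p = 8.9e-05). PPP1R15A encodes GADD34, which brings a phosphatase to eIF2 and so ends the response. It went from 594 to 715 CPM with siNC to 999 to 1305 CPM with siE7 (log2 fold change 0.75, adjusted p = 0.0013). VLDLR, a lipoprotein receptor, had 1.28 to 1.90 CPM with siNC and 2.29 to 2.36 CPM with siE7, and did not pass the test (adjusted p = 0.10).

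**Figure D2:**
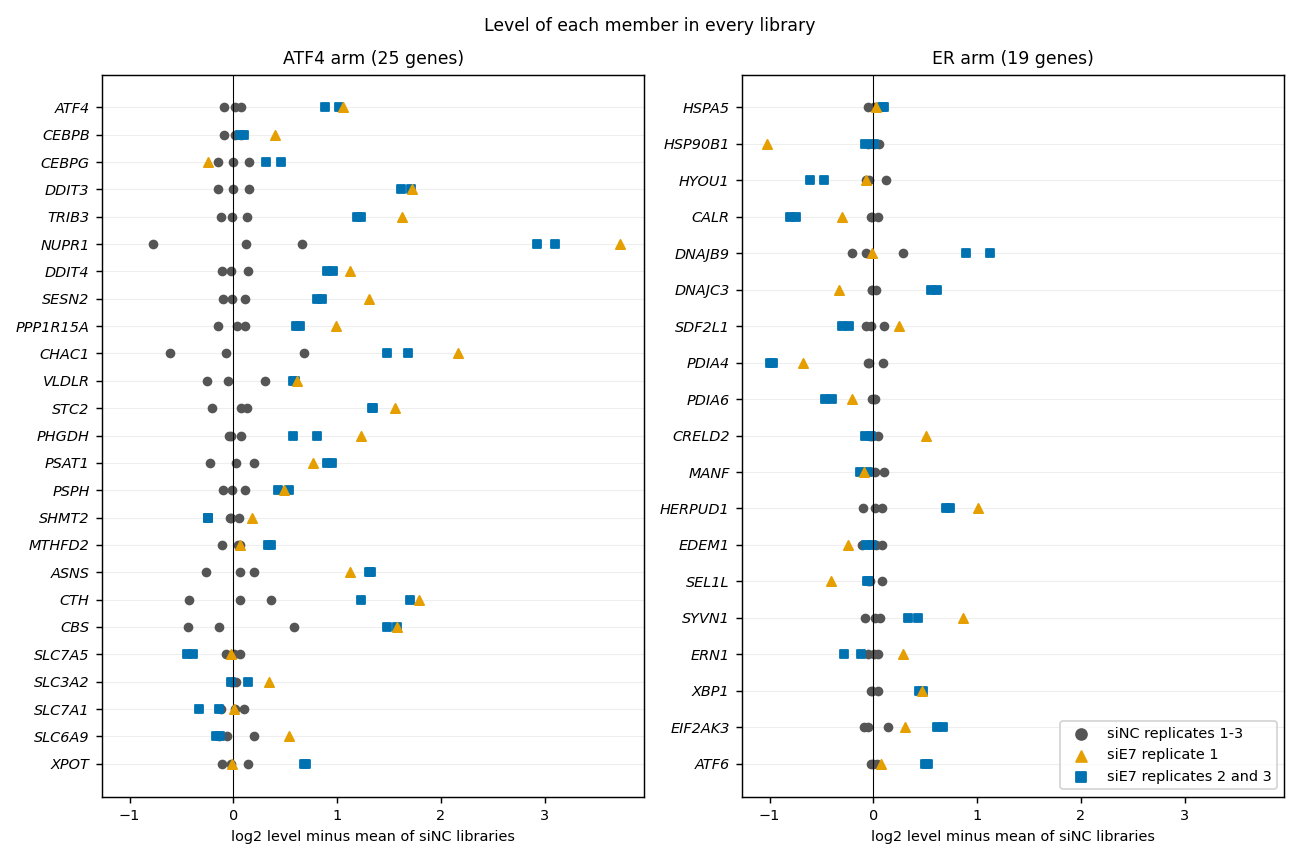
Level of each of the 44 members in every library, as log2(CPM + 0.02) minus the mean of the 3 siNC libraries (x axis), ATF4 arm on the left and ER arm on the right. Grey circles are siNC, orange triangles siE7 replicate 1 and blue squares siE7 replicates 2 and 3. Blue and orange marks sit right of grey for most ATF4-arm genes, while DNAJB9, DNAJC3, HSP90B1 and XPOT have the triangle well left of the squares.

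Among the enzymes of amino acid synthesis, the 3 genes of asparagine synthesis and transsulfuration all rose, beside 18.0% of all tested genes. ASNS, asparagine synthetase and a classic ATF4 target, lay at 15.4, 11.2 and 14.0 CPM with siNC and at 29.2, 33.5 and 33.1 CPM with siE7. With its CARE at -68 it had a log2 fold change of 1.24 (SE 0.153, adjusted p = 1.5e-04), and its groups were apart by more than the spread within either. ASNS, like NUPR1, overlaps an unnamed gene on its own strand.

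CTH and CBS are the enzymes that make cysteine from homocysteine. Both were near the limit of detection with siNC. CTH had 0.486, 0.600 and 0.341 CPM with siNC and 1.65, 1.56 and 1.11 CPM with siE7 (log2 fold change 1.59, adjusted p = 0.0066). CBS had 0.284, 0.480 and 0.227 CPM with siNC, from 7, 12 and 6 counts, and 0.978, 0.978 and 0.916 CPM with siE7, from 29, 27 and 28 counts. The log2 fold change of CBS was 1.53 (SE 0.413, adjusted p = 0.015). It is uncertain, since reads may be split with the near-identical copy CBSL, which had 0, 0 and 1 counts with siNC and 4, 0 and 11 with siE7. The adjusted p of CBS was 0.063 without siNC replicate 1 and 0.077 without siNC replicate 3.

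Of the serine pathway the 3 enzymes from 3-phosphoglycerate to serine rose, beside 18.0% of all tested genes. PSAT1, the aminotransferase, lay at 20.5, 15.3 and 18.2 CPM with siNC and at 30.5, 34.5 and 33.5 CPM with siE7 (log2 fold change 0.87, standard error 0.143, adjusted p = 9.7e-04). PHGDH, the first enzyme, ranged over 86.4 to 93.3 CPM with siNC and 133 to 209 CPM with siE7 (log2 fold change 0.90, adjusted p = 0.0013), with siE7 replicate 1 highest. PSPH, the last, was at 13.4 to 15.6 CPM with siNC and 19.4 to 20.8 CPM with siE7 (log2 fold change 0.48, adjusted p = 0.018). PSPH lost its call without siNC replicate 1, 2 or 3 or siE7 replicate 3, with adjusted p of 0.052, 0.087, 0.11 and 0.060.

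Of the mitochondrial one-carbon enzymes downstream, the members SHMT2 and MTHFD2 did not pass the test with all libraries. SHMT2, which splits serine, had a log2 fold change of -0.091 (adjusted p = 0.62). MTHFD2, which oxidises the one-carbon unit, ranged over 59.9 to 67.4 CPM with siNC and 67.7 to 82.8 CPM with siE7 (log2 fold change 0.26, adjusted p = 0.12). When siE7 replicate 1 was left out, SHMT2 was called lower at -0.31 and MTHFD2 higher at 0.28.

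None of the 4 amino acid transporters among the members passed the test with all libraries, and all 4 had overlapping groups. Over all tested genes 34.0% were called. Of the transporters among the further ATF4 targets listed below, SLC7A11 (log2 fold change 1.51, adjusted p = 9.2e-04) and SLC1A5 (0.73, adjusted p = 0.0027) were called higher. SLC38A2, SLC1A4 and SLC43A1 did not pass the test. Of the 4 members, SLC7A5, the light chain of the large neutral amino acid transporter LAT1, gave the smallest p. It lay at 1006, 1059 and 1102 CPM with siNC and at 1039, 776 and 806 CPM with siE7. The siE7 replicate 1 sat within the siNC range and replicates 2 and 3 well below it, with a log2 fold change of -0.27 (adjusted p = 0.12). SLC7A5 was called lower at -0.48 without siE7 replicate 1.

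SLC3A2, the heavy chain that pairs with SLC7A5, ranged over 520 to 535 CPM with siNC and 517 to 670 CPM with siE7. SLC7A1, a carrier of cationic amino acids, had 44.6 to 52.0 CPM with siNC and 38.5 to 48.7 CPM with siE7, and was called lower at -0.30 without siE7 replicate 1. SLC6A9, a glycine transporter, had 7.86 to 9.88 CPM with siNC and 7.69 to 12.6 CPM with siE7. A CARE match in the windows of SLC3A2 and SLC7A1, after the start in both, thus stood beside log2 fold changes of 0.16 and -0.15 that did not pass the test with all libraries.

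XPOT, the exporter of tRNA from the nucleus, lay at 48.8, 40.9 and 43.4 CPM with siNC and at 43.8, 70.6 and 71.8 CPM with siE7. Its siE7 replicate 1 was within the siNC range and the other libraries far above it. The log2 fold change was 0.48 (adjusted p = 0.054), and 0.62 with a call without siE7 replicate 1.

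Among the 11 ER chaperones and folding enzymes of the members 0 were called higher, 3 (27.3%) lower, and 8 did not pass the test. Their median log2 fold change was -0.094. Over all tested genes 34.0% were called, 18.0% higher and 16.0% lower. Of 36 further genes of ER folding and quality control, given below, 9 were called higher and 4 lower. Those called higher include ERO1A (0.79), and with overlapping groups HSPA13 (1.21) and FKBP14 (0.90). UGGT1 (-0.57) and TXNDC5 (-0.40) were among those called lower. HSPA5 encodes BiP, the main HSP70 chaperone of the ER and a gene commonly read as a marker of ER stress. It lay at 709, 681 and 734 CPM with siNC and at 719, 759 and 750 CPM with siE7. The groups overlapped, and the log2 fold change was 0.069 (SE 0.0995, adjusted p = 0.62). Over the alternatives its log2 fold change lay between 0.0029 and 0.24.

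PDIA4, PDIA6 and CALR fell. PDIA4, a disulfide isomerase on chromosome 7 of GRCh38 (chr7:149003062-149028662, minus strand), gave the smallest p of the ER arm. Its level was 453, 451 and 499 CPM with siNC and 293, 234 and 239 CPM with siE7, a log2 fold change of -0.87 (SE 0.120, adjusted p = 2.9e-04). CALR, the lectin chaperone calreticulin and per length the most abundant member at 1158 CPM per kilobase with siNC, lay at 2172, 2163 and 2267 CPM with siNC and at 1785, 1311 and 1259 CPM with siE7. Its groups were apart by a log2 fold change of -0.60 (SE 0.136, adjusted p = 0.0060), with siE7 replicate 1 nearest to siNC. PDIA6, another disulfide isomerase, went from 462 to 470 CPM with siNC to 338 to 405 CPM with siE7 (log2 fold change -0.35, adjusted p = 0.026). PDIA6 had adjusted p of 0.085 to 0.10 with library totals and without siNC replicate 1, 2 or 3 or siE7 replicate 2 or 3.

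In several chaperone genes siE7 replicate 1 lay apart from replicates 2 and 3, below them in some and above them in others. The first 4 described were chosen after their values were seen. HSP90B1, the HSP90 of the ER, lay at 517, 556 and 540 CPM with siNC, and at 264 CPM in siE7 replicate 1 against 507 and 539 CPM in replicates 2 and 3. DNAJB9, an HSP40 cochaperone raised by XBP1, lay at 8.59, 6.13 and 6.70 CPM with siNC, and at 7.02 CPM in siE7 replicate 1 against 15.4 and 13.1 CPM in the others. DNAJC3, a cochaperone of BiP, had 14.1 to 14.5 CPM with siNC, and 11.3 CPM in siE7 replicate 1 against 21.8 and 20.9 CPM. In these 3 genes replicate 1 was the lowest siE7 library by far. HYOU1, a large HSP70-like chaperone, was at 817 to 935 CPM with siNC, and at 817 CPM in siE7 replicate 1 against 617 and 564 CPM. With all libraries none of these 4 genes passed the test (adjusted p = 0.29, 0.052, 0.26 and 0.062 in that order). Without siE7 replicate 1 DNAJB9 and DNAJC3 were called higher at 0.94 and 0.52 and HYOU1 lower at -0.60, and HSP90B1 did not pass the test (log2 fold change -0.10, adjusted p = 0.12).

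The remaining 3 chaperone genes had overlapping groups. MANF, a secreted ER protein, ranged over 88.7 to 104 CPM with siNC and 88.0 to 93.2 CPM with siE7. SDF2L1, a partner of ER HSP40 proteins, ranged over 74.7 to 84.6 CPM with siNC, and had 93.3 CPM in siE7 replicate 1 against 67.0 and 63.7 CPM in the others. CRELD2, an ER-resident folding factor, ranged over 58.0 to 61.1 CPM with siNC, and had 84.0 CPM in siE7 replicate 1 against 56.1 and 58.3 CPM. In both genes replicate 1 lay above the siNC range. None of these 3 passed the test, with adjusted p from 0.45 to 0.71. The fit that left out siE7 replicate 1 called SDF2L1 lower at -0.33 (adjusted p = 4.6e-05) and MANF lower at -0.15 (adjusted p = 0.038), and did not call CRELD2 (log2 fold change -0.11).

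Of ER-associated degradation, HERPUD1 and SYVN1 rose while EDEM1 and SEL1L did not pass the test. HERPUD1, a membrane protein of the degradation complex, lay at 25.2, 22.2 and 23.9 CPM with siNC and at 47.7, 38.4 and 39.4 CPM with siE7. The groups were apart, with a log2 fold change of 0.82 (SE 0.133, adjusted p = 8.4e-04), and of 0.65 without siE7 replicate 1. SYVN1, the ubiquitin ligase HRD1, had 22.5 to 24.8 CPM with siNC and 29.8 to 43.1 CPM with siE7 (log2 fold change 0.56, adjusted p = 0.017). It overlaps FAU on its own strand and MRPL49 on the other, and lost its call without siNC replicate 1, 2 or 3, with adjusted p of 0.082, 0.068 and 0.059. It stayed called without siE7 replicate 1, at 0.32. EDEM1, which picks out misfolded glycoproteins, was at -0.10 on the log2 scale, and SEL1L, the partner of SYVN1, of -0.16.

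Among the sensors and XBP1, XBP1 and EIF2AK3 rose. XBP1, the factor that IRE1 splices, lay at 358, 360 and 376 CPM with siNC and at 505, 495 and 508 CPM with siE7. The groups were narrow and apart, with a log2 fold change of 0.46 (SE 0.0988, adjusted p = 0.0042). EIF2AK3 encodes PERK, the ER kinase of eIF2, and went from 22.1 to 25.9 CPM with siNC to 29.0 to 37.4 CPM with siE7 (log2 fold change 0.53, adjusted p = 0.013). It lost its call without siNC replicate 1 or 2 or siE7 replicate 3 (adjusted p = 0.070, 0.079 and 0.051). ATF6 had 28.4 to 29.7 CPM with siNC, and 30.4 CPM in siE7 replicate 1 against 41.8 and 40.8 CPM in the others (log2 fold change 0.38, adjusted p = 0.060). It was called higher at 0.45 (adjusted p = 6.5e-06) without siE7 replicate 1. ERN1, the gene of IRE1, ranged over 17.0 to 18.2 CPM with siNC and 14.5 to 21.5 CPM with siE7 (log2 fold change -0.018, adjusted p = 0.94), and was called lower at -0.26 (adjusted p = 0.034) when siE7 replicate 1 was left out.

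The difference between siE7 replicate 1 and the mean of replicates 2 and 3 ran with GC content over the members. Pearson's r between it and the GC content of the canonical transcript was 0.786 (Spearman's rho 0.818, 44 genes of the same 3 libraries), and 0.749 over 12808 tested genes above 1 CPM, given as a description. The log2 difference was -1.02 for DNAJB9 (37.3% GC) and -0.98 for HSP90B1 (41.8% GC), and 0.69 for SLC6A9 (60.0% GC) and 0.58 for CHAC1 (61.3% GC). The part of GC content in the differences between the groups was not tested. All 22 calls were kept in the same direction after removal of a GC trend per library and also without siE7 replicate 1. These fits called 50.6% and 58.4% of all tested genes, against 34.0% in the fit with neither change.

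Without siE7 replicate 1, 35 members were called, 25 higher and 10 lower, in a fit that called 58.4% of all genes. In it 21 ATF4-arm genes were called, 18 higher and 3 lower, and 14 ER-arm genes, 7 higher and 7 lower. The 3 lower ATF4-arm genes were SHMT2, SLC7A5 and SLC7A1. With the GC trend removed, 30 members were called, 18 in the ATF4 arm and 12 in the ER arm, of which 6 were higher and 6 lower, in a fit that called 50.6% of all genes.

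Other genes of the same pathways, from lists that do not hold the members, are given for context. Over all tested genes 34.0% were called, 18.0% higher and 16.0% lower. The share called was 60.9% of the further ATF4 targets and 36.1% of the further ER genes. It was 20% of the synthetases and 14.3% of the eIF2 genes, below that of all tested genes. Of 23 tested further ATF4 targets 12 rose (52.2%) and 2 fell, with a median log2 fold change of 0.71. ATF3, a stress-induced partner of ATF4, was at 1.55 (adjusted p = 1.7e-05), JDP2, of the same family, at 1.05 and TXNIP, an arrestin-like regulator of glucose uptake, at 0.83. EIF4EBP1, which blocks cap-dependent translation, fell at -0.44 and RHBDD1, a rhomboid protease, at -0.52. Of 20 cytosolic aminoacyl-tRNA synthetases, which charge tRNAs, 3 rose and 1 fell. Those that rose were AARS1 at 0.61, CARS1 at 0.51 and GARS1 at 0.49, and VARS1 fell at -0.46. Of 14 genes of the eIF2 kinases and the eIF2 pathway 1 rose and 1 fell. They were PPP1R15B, the standing eIF2 phosphatase subunit, at 0.41 and EIF2S1, the phosphorylated subunit of eIF2, at -0.40. Of 36 further genes of ER folding and quality control 9 rose (25%) and 4 fell (11.1%), with a median of 0.11. The smallest p-values were those of SERP1 at 0.91, CREB3 at 0.78 and SELENOK at 0.69 among the genes that rose, and of MBTPS1, the protease that cuts ATF6, at -0.70, UGGT1 at -0.57 and SEC24D at -0.80 among those that fell. SLC3A1 and DERL3 had no row in the table and FGF21 did not pass the filter.

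**Figure D3:**
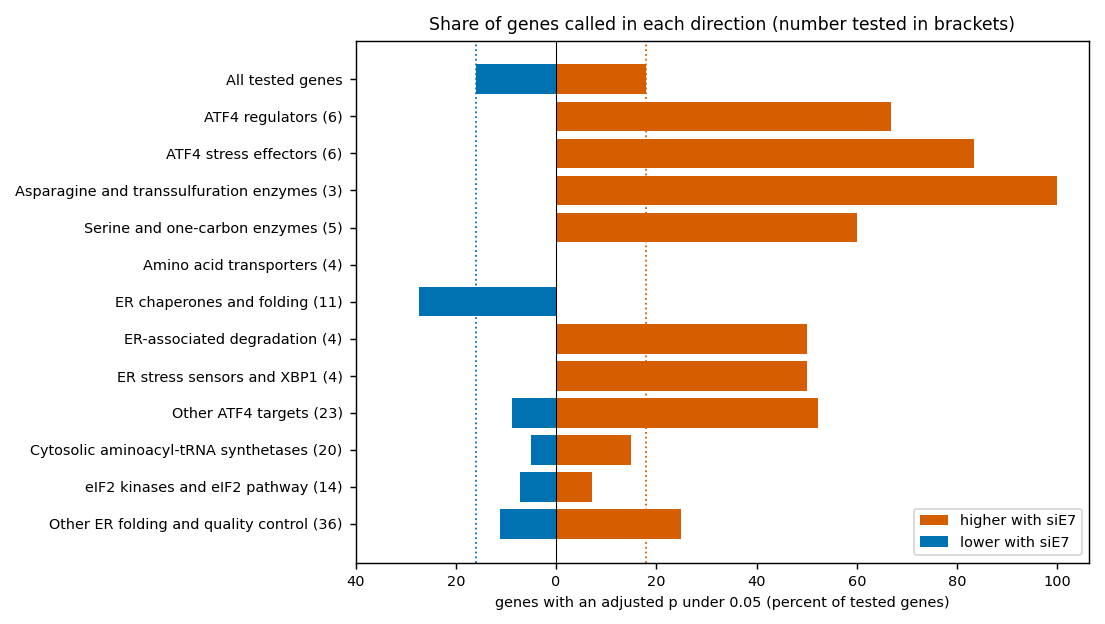
Percent of tested genes with an adjusted p-value under 0.05 (x axis), higher (orange, to the right) and lower (blue, to the left) with siE7, for all tested genes and for each role or list, with the number tested in brackets. Dotted lines mark the shares of all tested genes, 18.0% higher and 16.0% lower. The 3 asparagine and transsulfuration genes were all higher, and none of the 4 member transporters was called. ER chaperones among the members were called only lower, while the further ER genes were called in both directions.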

How the data were processed

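The authors deposited whole-number counts of reads per gene for 6 libraries, without normalization. They describe stranded mRNA libraries read as pairs of 150 bases. The submitters' processing notes name HISAT2, DESeq2 and GRCh38 with no versions, and the counting tool and its use of strand are not given in the sources used here. Groups were taken from the sample titles. Genes passing filterByExpr of edgeR 4.0.16 (R 4.3.3) were scaled by TMM factors and compared by its robust quasi-likelihood test, with Benjamini-Hochberg adjustment over all 14661 genes. DEGs were genes with adjusted p-values below 0.05 and an absolute log2 fold change above 1. Tests were checked on simulated data. The members and lists were chosen with earlier results of these data known.

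Every member may be named. Values in every library were planned for DEGs, for ATF4, DDIT3, HSPA5 and XBP1, and for the smallest p of each role. From other lists, SLC7A11, SLC1A5, SLC38A2, SLC1A4, SLC43A1, ERO1A, HSPA13, FKBP14 and TXNDC5 were named after they were seen. By plan, those lists gave the 3 smallest p-values in each direction. Values per library of XPOT come from the same rule, and those of HSP90B1, DNAJB9, DNAJC3, HYOU1, CALR, SDF2L1, CRELD2, CEBPG and ATF6 were added after they were seen.

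Alternatives were RLE factors, library totals, DESeq2 1.42.0, no filter, a replicate block, a minimum of 10 counts in every library, and each library left out in turn. Removal of each library's GC trend (lowess, span 0.3) was chosen after seeing the data. Lengths, GC content, positions and overlaps come from GENCODE 44, to which 25267 of 25349 gene identifiers were matched. Promoter windows come from RefSeq, where NUPR1, PSPH and SHMT2 were not found. For levels in figures and medians per library, 0.02 CPM was added before log2.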

Additional observations from a re-analysis of the deposited data

How the results depend on the processing

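Of the 15 ATF4-arm calls 11, and of the 7 ER-arm calls 4 (CALR, PDIA4, HERPUD1 and XBP1), were kept under all 13 alternatives. No call changed direction. The cause of the following shifts was not tested. With each library left out in turn, 17 to 35 members were called, 4 to 14 of them in the ER arm, and 3153 to 8765 of all tested genes. The ATF4-arm median then lay between 0.63 and 0.87 and the ER-arm median between -0.10 and 0.063. The extremes of 35, 14 and 8765 were those without siE7 replicate 1, and the ER arm held 4 calls without siNC replicate 1 or 2. The number of member DEGs lay between 7 and 13.

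The ATF4-arm median was 1.04 with library totals and 0.69 with at least 10 counts in every library, a filter that removes NUPR1, CTH and CBS. The ER-arm median was 0.14 with library totals, 0.0051 with at least 10 counts, -0.063 with RLE factors, -0.071 with DESeq2 and -0.045 with the GC trend removed, which gave 12 ER-arm calls. The sign changed in some genes that did not pass the test. With library totals these were SHMT2 (0.070), SLC7A1 (0.013), SDF2L1 (0.080), MANF (0.075), EDEM1 (0.067), SEL1L (0.011) and ERN1 (0.14). With at least 10 counts it was ERN1 (0.0051). Without siE7 replicate 1 these were SLC3A2 (-0.0027), SLC6A9 (-0.22) and CRELD2 (-0.11). Without siE7 replicate 2 it was ERN1 (0.029), and without siE7 replicate 3 SDF2L1 (0.025) and ERN1 (0.098), with an ER-arm median of 0.029 and 0.063. Over the left-out libraries these genes spanned -0.0027 to 0.25 (SLC3A2), -0.22 to 0.24 (SLC6A9), -0.33 to 0.025 (SDF2L1), -0.11 to 0.26 (CRELD2) and -0.26 to 0.098 (ERN1).

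Deviations of same-numbered libraries from their group means correlated at -0.057, -0.0093 and -0.092, and those of differently numbered libraries at -0.058 to 0.093. The labels do not say whether same-numbered libraries were paired, and these few values cannot decide it. A block on the replicate number gave 25 member calls, adding XPOT, HYOU1 and DNAJB9, and an ER-arm median of -0.037. At this depth NUPR1, CTH and CBS had at most 16 counts in each siNC library, which limits the precision of their fold changes.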
